A study of Rattus norvegicus with 32 samples.

Results

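The caseins and the other major milk protein genes were followed through the estrous cycle of virgin rat mammary gland. All probe sets whose platform symbol was Csn1s1, Csn1s2a, Csn2, Csn3, Wap, Lalba, Glycam1, Btn1a1, Xdh or Mfge8 were taken. Of these 10 genes, 8 had 1 probe set each, so that 8 of the 31042 probe sets on the array other than controls were members. Csn1s2a and Btn1a1 had no probe set under their symbol and are not analysed here. The animals were untreated, never mated Sprague Dawley females, young adults with regular cycles, on a standard chow diet, and no group carried an altered allele or an agent. Each rat gave 1 array at 1 time point between 7 and 88.1 h of a 4 day cycle, and day 2 holds estrus. The rats formed 4 groups by cycle day, of 8, 8, 8 and 7 animals, with 1 further array of day 2, at 40 h, left out as the study left it out. No time point had a replicate, so that the rats of a day stand in for replicates and differ in clock hour as well as in animal. The RNA came from the whole gland, with lymph nodes removed by the study's account, though lymphocyte markers were high in some rats. Fewer cells of a type and less RNA per cell can thus not be told apart.

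Milk proteins are made by the luminal secretory cells of the mammary alveoli. Prolactin acts through its receptor, the kinase JAK2 and the transcription factor STAT5 on their promoters, together with glucocorticoid receptor and the epithelial factor ELF5. Large output belongs to late pregnancy and lactation, while the gland of a virgin animal consists mostly of fat and stroma with a branched tree of ducts and small lobules. The caseins carry calcium and phosphate in micelles. WAP is the whey acidic protein of rodents. LALBA, alpha-lactalbumin, is the regulatory subunit of lactose synthase. GLYCAM1 is a small mucin-like glycoprotein of whey, also known from the high endothelial vessels of lymph nodes. XDH, xanthine dehydrogenase, and MFGE8, lactadherin, belong to the membrane around the milk fat globule.

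The STAT5 palindrome TTCNNNGAA, which reads the same on both strands, was searched in the 250 bases before the gene start of the 10 genes, in RefSeq promoters of build GRCr8. It was found in 4 of the 10, Csn1s1, Csn1s2a, Csn2 and Glycam1, and in 7.67% of all 33469 promoters. Csn1s1, Csn1s2a and Csn2 are casein genes of the same stretch of chromosome 14, with the match at -100, -102 and -97. The 4 are thus not independent observations. The promoters of Csn1s1, Csn2 and Glycam1, which were also measured, are shown with the match in capitals. The promoter of Wap, which holds no match, is shown beside them because Wap went with Csn2 rat by rat.
Csn1s1, chr14:20638850-20639049, minus strand: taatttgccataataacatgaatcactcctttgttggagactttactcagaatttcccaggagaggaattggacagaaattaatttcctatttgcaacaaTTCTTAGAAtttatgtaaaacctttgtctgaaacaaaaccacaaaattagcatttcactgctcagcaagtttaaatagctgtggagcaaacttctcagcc
Csn2, chr14:20601624-20601823, plus strand: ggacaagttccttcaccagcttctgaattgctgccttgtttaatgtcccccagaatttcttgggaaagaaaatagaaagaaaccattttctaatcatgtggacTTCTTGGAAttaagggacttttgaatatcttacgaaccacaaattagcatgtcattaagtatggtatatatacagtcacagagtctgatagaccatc
Glycam1, chr7:136561300-136561499, minus strand: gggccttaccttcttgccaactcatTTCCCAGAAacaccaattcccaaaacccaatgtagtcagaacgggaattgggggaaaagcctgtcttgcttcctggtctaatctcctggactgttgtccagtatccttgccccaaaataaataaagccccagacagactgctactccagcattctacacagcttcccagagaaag
Wap, chr14:85719160-85719359, minus strand: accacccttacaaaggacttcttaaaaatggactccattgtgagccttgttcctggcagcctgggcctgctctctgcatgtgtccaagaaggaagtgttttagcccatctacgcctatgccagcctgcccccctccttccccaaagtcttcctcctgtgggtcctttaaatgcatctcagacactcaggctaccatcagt
Each run ends at the base before the gene start. The match began at position -100 in Csn1s1, -97 in Csn2 and -175 in Glycam1, counted back from the gene start. A run shared by Csn1s1, Csn2 and Csn1s2a, AATTAGCAT, chosen after their sequences were compared, began at -56, -56 and -60 and was in 0.242% of all promoters on either strand. No match to the palindrome was in these windows of Csn3, Wap, Lalba, Btn1a1, Xdh and Mfge8. A match is a description of the letters, not a bound site.

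All 8 members were detected in virgin glands by the study's filter. Each reached 10 or more in all 31 rats, and none had a median under 10, which 26.1% of all probe sets had. Intensities are GC-RMA values on a linear scale, and those of different probe sets are not compared with each other. The highest value in the whole table was 37317, and the array medians lay between 49.9 and 54.7. Glycam1 was below the lowest of these medians in some rats, with 38.4 at 7 h, 38.5 at 13.2 h and 47.6 at 79.3 h. The markers of the tissue were present. Krt8 and Krt18, keratins of luminal cells, had medians of 2274 and 3261, and Krt14, a basal keratin, had a median of 1009. Adipoq, the fat cell hormone adiponectin, had a median of 6078. Foxa1 and Erbb4 had medians of 6.27 and 7.99, and Esr1, the estrogen receptor, had 19.4 with a low of 6.21.

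Csn2, Wap and Glycam1 ranged widely between rats. Csn2, beta-casein, had a lowest intensity of 169 at 13 h, a median of 2648 and a highest of 20839 at 41.6 h, a 123-fold range. Wap went from 170 at 61.3 h over a median of 1663 to 18198 at 41.6 h, a 107-fold range. Glycam1 went from 38.4 at 7 h over a median of 970 to 16791 at 41.6 h, a 437-fold range. Their SDs over the 31 rats were 2.35 for Csn2, 2.17 for Wap and 2.77 for Glycam1 on the log2 scale. Only 21 of the 21068 probe sets that passed the filter, 0.0997%, had an SD of at least 2.

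The other members had narrower ranges, within 3.56-fold, though their SD was not small beside that of other genes. Of all probe sets that passed the filter, 6.27% had an SD at least that of Csn3, 10.7% that of Mfge8, 16.1% that of Csn1s1, 23.9% that of Lalba and 31.4% that of Xdh. Csn1s1, alpha-s1-casein, went from 12440 at 13 h over a median of 20679 to 30402 at 43 h, a 2.44-fold range. Csn3, kappa-casein, which stabilises the micelle, went from 6501 at 13.2 h over a median of 14003 to 23127 at 41.6 h, a 3.56-fold range. Lalba went from 9827 at 61.3 h over a median of 16136 to 22866 at 59.8 h, a 2.33-fold range. These levels lie near the top of the table's scale, and the part of that in their narrow range was not tested. Xdh went from 4981 at 61.3 h over a median of 7656 to 11343 at 41.6 h, a 2.28-fold range. Mfge8 went from 1462 at 61.3 h over a median of 2600 to 4751 at 41.6 h, a 3.25-fold range well below the top of the scale. The rat of 41.6 h thus had the highest value of Csn2, Csn3, Wap, Glycam1, Xdh and Mfge8, and the rat of 61.3 h the lowest of Wap, Lalba, Xdh and Mfge8.

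**Figure D1:**
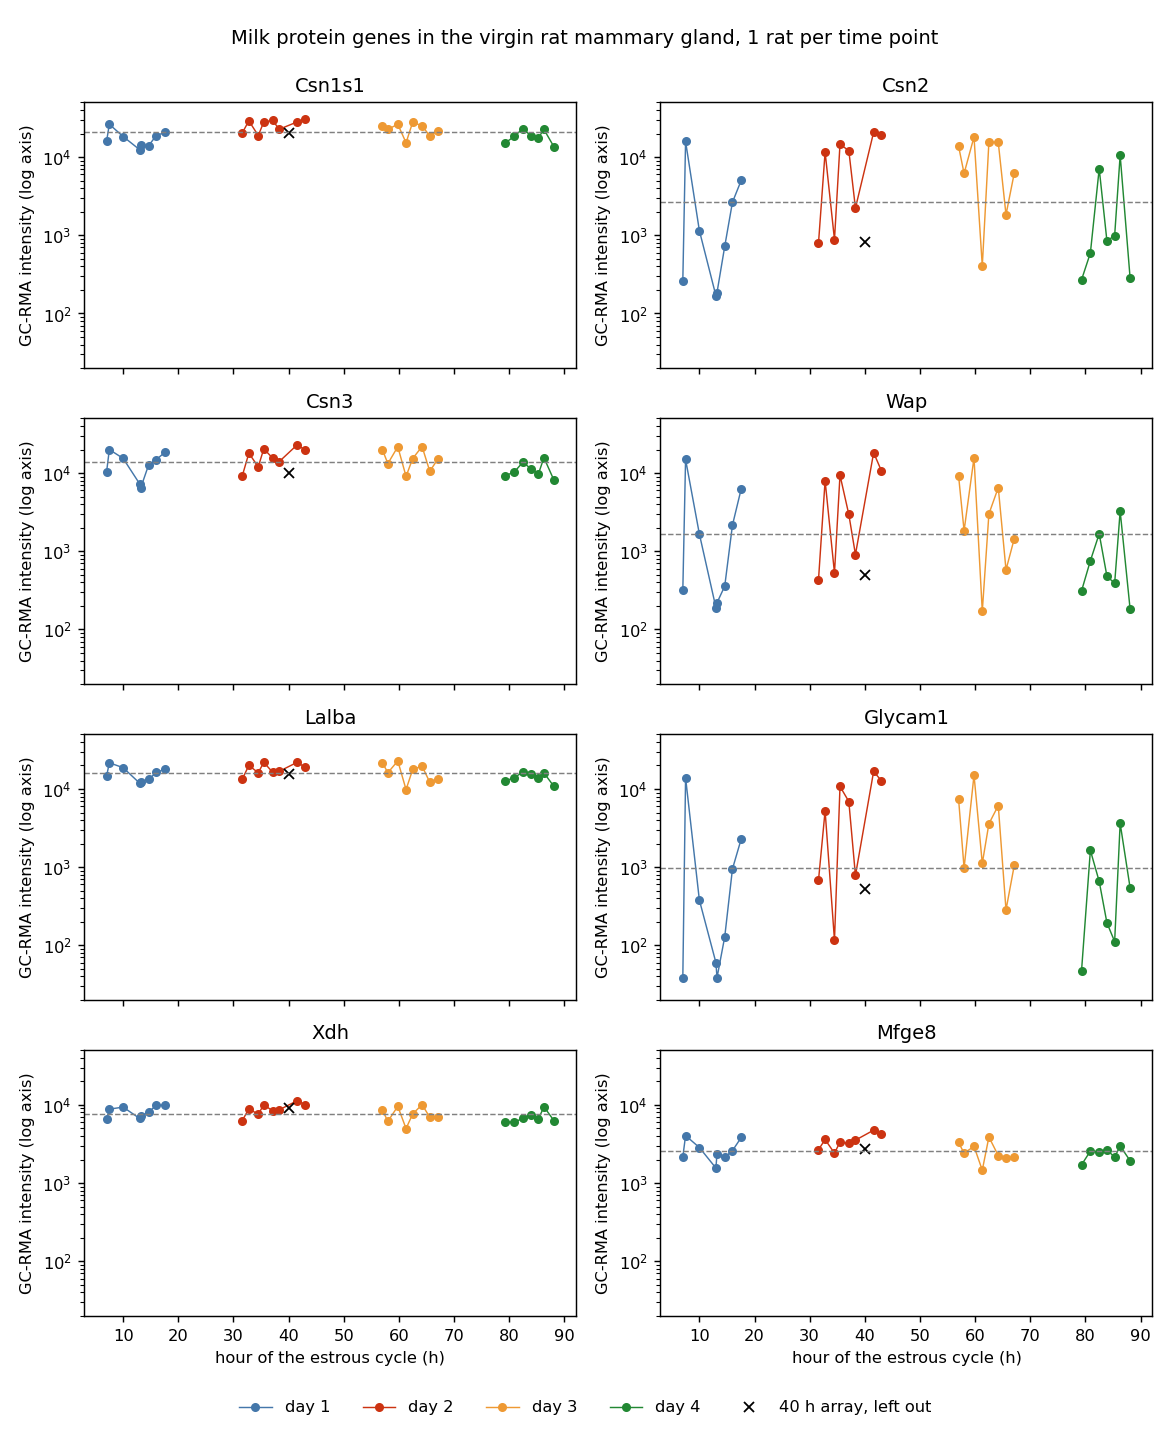
GC-RMA intensity (log axis) of the 8 measured milk protein genes against the hour of the estrous cycle, 1 point per rat, coloured and joined within each cycle day. The dashed line is the median of the 31 rats and the cross is the 40 h array, which was left out. Over the 31 rats Csn2, Wap and Glycam1 span a 107-fold range or more, with steps of up to 60.5-fold, 92.2-fold and 363-fold between neighbouring rats of a day, while Csn1s1, Csn3, Lalba, Xdh and Mfge8 stay within a 3.56-fold range.

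A burst was counted where a rat had at least 4 times the median of the 31 rats. Bursts occurred in Csn2, Wap and Glycam1, against 1.47% of all probe sets with a burst in at least 1 rat. They fell in 10 rats, 1 of day 1 at 7.5 h, 5 of day 2 at 32.8, 35.5, 37.1, 41.6 and 43 h, 4 of day 3 at 57, 59.8, 62.5 and 64.2 h, and 0 of day 4. With 2 times the median as the threshold 15 rats had a burst, 2 of them of day 4, at 82.5 and 86.3 h. Csn2 burst in all 10. Glycam1 burst in 9, all but that of 62.5 h, and Wap in 7. In 7 rats all 3 genes burst together, in 2 rats Csn2 and Glycam1 did, and in 1 rat Csn2 alone. For Csn1s1, Csn3 and Lalba 4 times the median was 82717, 56010 and 64543, above the highest value of the whole table, 37317. A burst could therefore not be seen in Csn1s1, Csn3 and Lalba at this threshold. For Xdh and Mfge8 it was 30624 and 10402, and their highest values were 11343 and 4751.

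Neighbouring rats of a day could differ by much of the range of the series. The largest step between them was 60.5-fold for Csn2 and 363-fold for Glycam1, both from 7 to 7.5 h, and 92.2-fold for Wap, from 59.8 to 61.3 h. At 7 h Csn2 had an intensity of 263, Wap 316 and Glycam1 38.4. At 7.5 h, in another rat, Csn2 had 15911, Wap 14951 and Glycam1 13947. On day 3 the rat of 59.8 h had 18131 for Csn2, 15698 for Wap and 15047 for Glycam1. The next, of 61.3 h, had 403, 170 and 1117. On the second day the same genes stood at 790, 429 and 678 at 31.6 h and at 11632, 8005 and 5268 at 32.8 h. High and low rats thus stood side by side on each of these days, and such pairs also differed in the tissue marker scores given below. The other members also differed between these rats, on a smaller scale, with Csn1s1 at 16014 and 26304, Csn3 at 10362 and 19974 and Mfge8 at 2156 and 4052 at 7 and 7.5 h.

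The values just inside and just outside the burst threshold were closest in Csn2. For Csn2 the threshold was 10591, with 11632 just inside and 10582 just outside, the latter in the rat of 86.3 h on day 4. For Wap the threshold was 6652, with 8005 and 6516 on its sides. For Glycam1 it was 3881, with 5268 and 3634. With the rats sorted by level, the largest step between neighbours in Csn2 was 0.94 on the log2 scale, from 2648 to 5062. In Wap it was 0.96, from 3257 to 6330, and in Glycam1 0.89, from 60.1 to 112. Whether the rats form separate clusters was not tested. In 10 rats all 8 members were at or over their median, in 8 rats none was, and in 13 rats some were. Of the 10 rats with all members high, 2 were of day 1, 5 of day 2 and 3 of day 3, and of the 8 rats with none, 3 were of day 1, 1 of day 2, 1 of day 3 and 3 of day 4.

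The comparison of cycle days asks whether milk protein expression follows the hormonal cycle. On the linear scale the mean of every member was highest on day 2, and that of 7 of the 8 was lowest on day 4. The rats of each day spread widely. In the fit on the log2 scale day 2 was also highest, but day 4 lay above day 1 in Csn1s1, Csn2 and Glycam1, by 0.09, 0.21 and 0.41. The medians of day 1 and day 4 were 935 and 847 for Csn2, 1010 and 480 for Wap, and 254 and 546 for Glycam1. The rat of 7.5 h had the highest day 1 value of these last 3 genes. Csn2 had a mean of 10258 ± 8056 (SD, n = 8) on day 2, followed by day 3 with 9699 ± 6840 (SD, n = 8), day 1 with 3264 ± 5379 (SD, n = 8) and day 4 with 2954 ± 4156 (SD, n = 7). In the same order of days Wap had means of 6394 ± 6344, 4807 ± 5396, 3273 ± 5150 and 1007 ± 1110, with the SD over the same rats. Glycam1 had 6760 ± 6230, 4458 ± 5029, 2231 ± 4797 and 976 ± 1292. In these 3 genes every neighbouring pair of days in that order overlapped and differed by less than the larger of their SDs.

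Csn1s1 differed most beside its spread. Day 2 had a mean of 25934 ± 4531 (SD, n = 8), day 3 of 22879 ± 4239 (SD, n = 8), day 4 of 18500 ± 3515 (SD, n = 7) and day 1 of 17601 ± 4499 (SD, n = 8). Day 2 ran from 18880 to 30402 and day 1 from 12440 to 26304, so that the days overlapped. Csn3 followed the order of Csn2, day 2, day 3, day 1, day 4, with 16475 ± 4658, 15862 ± 4920, 13177 ± 4927 and 11195 ± 2689. Lalba had 18187 ± 3055, 16687 ± 4674, 15822 ± 3443 and 14223 ± 2019 in that order. Xdh and Mfge8 had the order day 2, day 1, day 3, day 4. Xdh went from 8905 ± 1566 on day 2 to 6946 ± 1214 on day 4, and Mfge8 from 3477 ± 770 to 2362 ± 449.

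None of the 8 members passed the test of a difference between days, which 0.574% of all probe sets passed (limma moderated F over day with the clock hour in the fit, Benjamini-Hochberg adjusted p under 0.05). The limma adjusted p was 0.121 for Csn1s1 and reached 0.625 for Lalba, with 0.401 for Csn2, 0.398 for Glycam1 and 0.412 for Mfge8. Before adjustment 4 of the 8 had a p under 0.05, the lowest being 0.0019 for Csn1s1. With array weights 2 members passed, Csn1s1 at an adjusted p of 0.015 and Glycam1 at 0.048 (limma), and without the rat of 7.5 h Csn1s1 passed at 0.0484.

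The largest fitted difference was between day 2 and day 1 in Glycam1, 3.11 ± 1.18 (SE) on the log2 scale, with a limma adjusted p of 0.777. Csn2 differed by 2.42 ± 0.996 (limma adjusted p = 0.830) and Csn1s1 by 0.58 ± 0.148 (limma adjusted p = 0.488) between the same days. Between day 4 and day 2, where all 8 members were lower on day 4 and all had an unadjusted p under 0.05, the adjusted p ran from 0.355 for Csn1s1 to 0.650 for Csn2 (limma). As the members go together rat by rat, the 8 are not 8 independent observations. In none of the 6 pairs of days did a member pass (limma), while 0.00475% of all probe sets passed for day 2 against day 1, 1.12% for day 3 against day 1, 0.0237% for day 4 against day 1, 0.271% for day 3 against day 2, 0.0427% for day 4 against day 2 and 0% for day 4 against day 3. The number of members with an unadjusted p under 0.05 in these pairs was 4, 3, 0, 2, 8 and 1.

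The slope through the day asks whether a gene climbs or declines with the clock hour. No member passed, against 1.96% of all probe sets (limma), and 1 of the 8 had an unadjusted p under 0.05. That was Xdh, with 0.28 ± 0.132 (SE) per 10 h on the log2 scale, an unadjusted p of 0.046 and an adjusted p of 0.381 (limma). Csn2 had 0.95 ± 1.04 per 10 h and Csn1s1 -0.01 ± 0.154. Day and hour together accounted for 16.9% of the variance of Lalba to 41.0% of that of Csn1s1, with 29.5% for Csn2 and 28.5% for Glycam1.

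Method 1, the spline test for variation over time, called 1 of the 8 members at a false discovery rate of 0.25, against 9.06% of all probe sets. That was Csn1s1, with a ratio of fitted to observed variance of 0.459 and an adjusted p of 0.226. Csn2 had a ratio of 0.346 (adjusted p = 0.530), Glycam1 0.366 (0.468), Xdh 0.377 (0.438) and Mfge8 0.371 (0.458). Csn3, Wap and Lalba had adjusted p values from 0.715 to 0.729. The call of Csn1s1 was lost when the spline order, the filter or the normalization was changed, and leaving out 1 rat gave between 0 and 4 members called, the 4 without the rat of 7.5 h.

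The members were high and low in the same rats. Over the 31 rats the Pearson r of log2 intensity was positive in all 28 pairs of members and ran from 0.61 to 0.95, with a median of 0.82. Spearman's rho ran from 0.62 to 0.95. The permutation p (two-sided, 100000 resamples) was at most 0.0004 for r and 0.0003 for rho, and in 23 pairs that of r was 1e-05, the smallest these permutations can give. Without the 2 rats farthest from the median of the first gene of each pair, r ran from 0.59 to 0.96. All 28 pairs passed when the first gene was fitted against all probe sets (limma, adjusted p at most 0.0105).

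The background for these fits was several percent of all probe sets. Going up with the member were 2.91% for Csn1s1, 4.63% for Csn2, 5.74% for Csn3, 5.72% for Wap, 5.93% for Lalba, 4.6% for Glycam1, 6.28% for Xdh and 6.19% for Mfge8. The median r over all probe sets that passed the filter was 0.01 with Csn2.

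The highest r were between caseins and Wap, though not for every such pair. Csn3 and Wap had an r of 0.95 and a rho of 0.95, and Wap was the probe set with the highest r to Csn3 of all those that passed the filter. Csn1s1 and Csn2 had an r of 0.94 and a rho of 0.93, and Csn2 ranked first for Csn1s1 likewise. Csn2 had an r of 0.93 with Wap and 0.92 with Csn3, and Lalba had 0.92 with Wap and 0.90 with Csn3. Csn1s1 and Csn3 had 0.85. Glycam1 had an r of 0.89 with both Csn2 and Wap. Xdh stood farthest off, with 0.61 to Glycam1, 0.62 to Csn1s1 and 0.69 to Csn2, but 0.82 to Csn3. Mfge8 had between 0.71, with Glycam1, and 0.81.

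**Figure D2:**
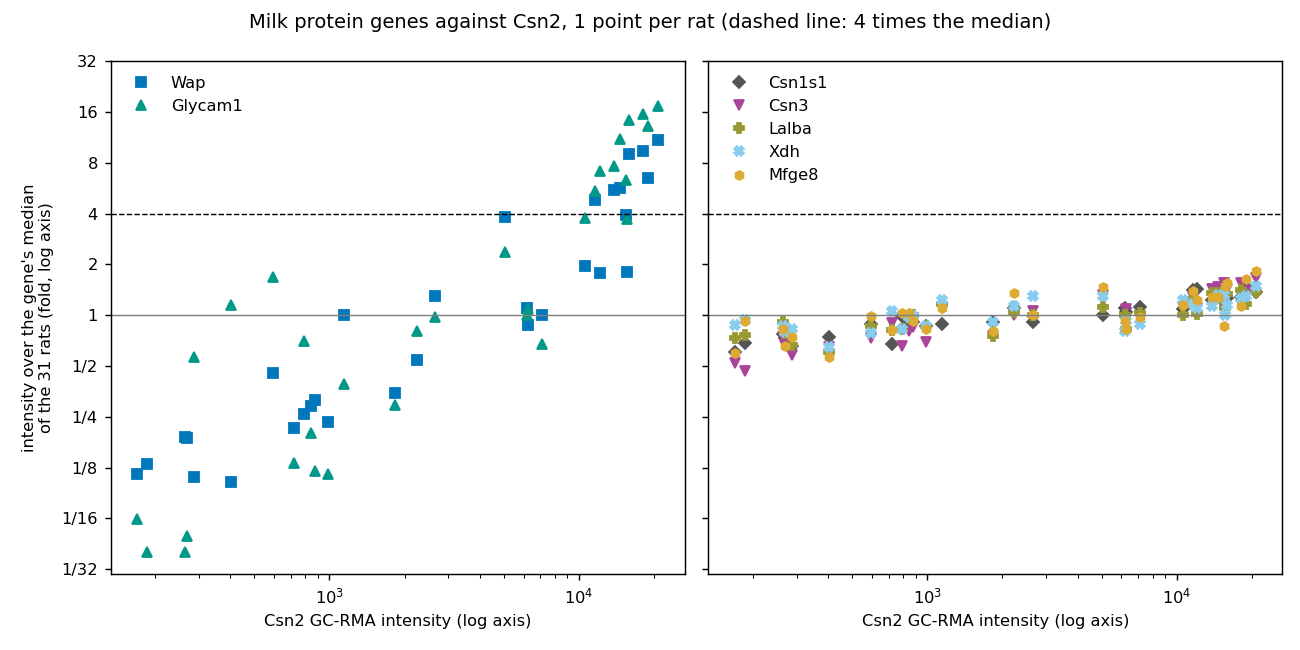
Fold of each gene over its own median of the 31 rats (log axis) against the Csn2 intensity of the same rat (log axis), 1 point per rat and gene, with Wap and Glycam1 at left and the 5 members of narrow range at right. The grey line is the median and the dashed line 4 times the median. Wap and Glycam1 climb with Csn2, from 9.76 and 25.2 times under their median to 10.9 and 17.3 times over it, while the members at right climb with it to at most 1.83 times theirs.

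The correlation remained when the mean of each cycle day and a linear slope of clock hour were taken out. Other differences in cycle stage between rats of a day stay in these residuals. After day and clock hour were taken out, r was higher in 21 of the 28 pairs and ran from 0.69 to 0.97, with a median of 0.87. Within day 1 it ran from 0.70 to 0.99, within day 2 from 0.69 to 0.98, within day 3 from 0.58 to 0.99 and within day 4, with 7 rats, from 0.31 to 0.97. The pair of Lalba and Glycam1 was the lowest on day 4, at 0.31, and the only one under 0.5 within a day. With the 40 h array added r ran from 0.59 to 0.95. That array had 831 for Csn2, 491 for Wap and 528 for Glycam1, inside the range of the other rats.

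**Figure D3:**
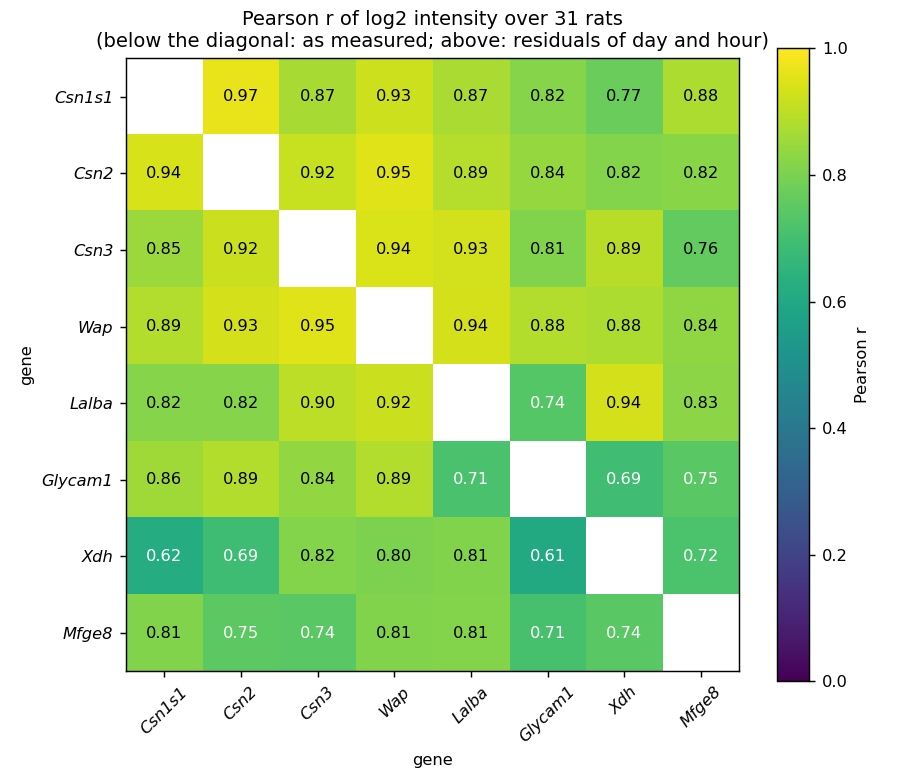
Pearson r of log2 intensity between the 8 milk protein genes over 31 rats, as measured (below the diagonal) and after day and clock hour were taken out (above the diagonal), with the colour scale from 0 to 1. Every cell is positive, from 0.61 for Glycam1 and Xdh to 0.95 for Csn3 and Wap as measured.

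The casein genes lie side by side on chromosome 14 with other secreted protein genes among them. Of the genes between Csn3 and Csn1s1 in the GRCr8 table, Prr27, a gene for a proline-rich protein, had a probe set and went from 1696 over a median of 5966 to 16628. Its r was 0.86 with Csn1s1, 0.85 with Csn2, 0.85 with Csn3 and 0.86 with Wap, the last of these a gene elsewhere on the chromosome. Lalba and Glycam1, on chromosome 7, and Mfge8, on chromosome 1, had 0.86, 0.72 and 0.85 with Prr27. Fdcsp, Odam, Csn1s2b and Stath had no probe set under their symbol.

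The genes most like each member were named as the 5 with the highest r outside the members. Aldoc, a glycolytic aldolase, and Duoxa1, a maturation factor of the dual oxidase DUOX1, were each among the 5 of 5 members. Muc4, a membrane mucin, had an r of 0.94 with Wap, 0.94 with Csn3 and 0.87 with Csn2, and its intensity went from 148 to 529. Aldoc went from 360 to 2124, with an r of 0.89 to Csn2, 0.89 to Wap and 0.87 to Csn1s1. Plin2, the coat protein of lipid droplets, went from 2020 to 6470, with an r of 0.92 to Mfge8, 0.89 to Wap and 0.85 to Csn1s1. Tpd52l1, with 0.90 to Csn2, completed those at the top for the caseins together with Prr27, Col9a3, Naprt, Ttc39a, Tc2n and Cth, all at 0.835 or more.

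Lalba was most like Ttc39a, at 0.92, and Gjb1, the gap junction protein connexin 32, at 0.92, with Tc2n, Lrrc1 and Duoxa1 after them. Glycam1 was most like Gga2, a sorting adaptor of the Golgi, at 0.89, then Aldoc, Atp6v1d, Tnik and Sod1. Xdh was most like Elf5, at 0.87, then Duoxa1, the tight junction gene Cldn3, Tcf7l2 and Trps1. Mfge8 was most like Qsox1, a secreted sulfhydryl oxidase, at 0.94, then Plin2, Aldoc, Abcg2, at 0.89, and Mpzl1. Abcg2, a transporter that secretes vitamins and drugs into milk, went from 44.8 to 1092. At the other end, and chosen after their values were seen, Rbp4, the carrier of retinol, had an r of -0.81 with Csn3 and -0.82 with Wap, and Ghr, the growth hormone receptor, had -0.82 with Wap. Among the 20 probe sets with the highest r, 6 were members for Csn1s1, 5 for Wap, 4 each for Csn2, Csn3 and Glycam1, 2 for Lalba and 0 for Xdh and Mfge8.

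Of 18 genes of prolactin and STAT5 signalling, 17 passed the filter and Erbb4 did not. None of the 17 differed between days (limma), beside 0.574% of all probe sets, with 5 at an unadjusted p under 0.05. Cish, a feedback inhibitor induced by STAT5, climbed through the day by 0.58 per 10 h on the log2 scale (limma adjusted p = 0.035), 1 of the 17 against 1.96% of all probe sets, and it did not pass with any member. With Csn2, 3 of the 17 went up, Elf5, Nfib and Akt1, and 1 went down, Cav1 (limma), beside 4.63% and 2.72% of all probe sets, and the median r of the list was 0.14 beside 0.01 over all. Elf5, the alveolar transcription factor, went up with all 8 members, with r from 0.68 to 0.87 and a limma adjusted p of at most 0.0024. Its intensity went from 784 over a median of 1611 to 3272.

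Nfib, a nuclear factor that occupies milk protein gene regions, went up with 7 of the 8, with r from 0.48 for Csn1s1, which did not pass, to 0.84 for Xdh. Stat5a passed with 5 of the 8, at 0.77 with Xdh and 0.76 with Mfge8, and had 0.47 with Csn2, at a limma adjusted p of 0.061. Cebpb, another factor of the secretory cell, passed with 5, and Akt1, Id2 and Gata3 passed with 2 each. Cav1, caveolin, a protein of fat cells and endothelium and an inhibitor of prolactin signalling, went down with all 8, with r from -0.57 to -0.75. Prlr, the prolactin receptor, had an r of -0.41 with Csn2 (limma adjusted p = 0.133) and passed with Glycam1, at -0.51 (limma adjusted p = 0.038). Jak2 had 0.02 with Csn2 and went from 319 to 547.

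Of 17 other milk and secretory proteins, 12 had a probe set and 11 passed the filter. None differed between days or had a slope through the day (limma), beside 0.574% and 1.96% of all probe sets. At an unadjusted p under 0.05 were 5 and 2 of the 11. With Csn2, 6 of the 11 went up and 1 went down (limma), beside 4.63% and 2.72% of all probe sets. The median r was 0.65, beside 0.01 over all. Those 6 were Plin2, Pigr, the receptor that carries antibodies into milk, Muc1, a mucin of the milk fat globule, Cel, bile salt stimulated lipase, Folr1, a folate binding protein, and Fabp3, a fatty acid binding protein. All 6 passed with all 8 members, Plin2 with r from 0.80 to 0.92 and Pigr with r from 0.65 to 0.87. Lpo, lactoperoxidase, passed with 5 members and Clu, clusterin, with 4. Fabp3 had the widest range, from 42.3 over a median of 110 to 4896. Cd36, a fatty acid translocase of fat cells, endothelium and milk fat globules, was the one that went down, at -0.52 with Csn2.

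The makeup of the sample moved with the members in part. For each cell type a score was formed as the mean log2 intensity of its markers that passed the filter, each centred on its mean over the 31 rats, and 64 relations between 8 scores and 8 members were tested by permutation with Benjamini-Hochberg adjustment over the 64. The adipocyte score went down with 7 of the 8, with an r of -0.52 and a rho of -0.53 for Csn2 (permutation, adjusted p = 0.021 and 0.026) and -0.70 and -0.70 for Lalba (adjusted p = 0.0019 and 0.0026). Without the 2 rats farthest out, r was -0.45 for Csn2 and -0.71 for Lalba. Xdh, the one that did not pass, had -0.32. Of 10 adipocyte markers 4 went down with Csn2, Adipoq, Fabp4, Plin1 and Lep, and these and Pparg with Csn3 (limma, 4 and 5 of 10), beside 2.72% and 4.9% of all probe sets. Adipoq had -0.66 with Csn2 and -0.77 with Wap. Day 1 had scores from -0.58 to 0.45, day 2 from -0.46 to 0.27, day 3 from -0.51 to 0.80 and day 4 from -0.23 to 0.27. Of the neighbouring rats named above, the low one had the higher adipocyte score each time. It was -0.02 at 7 h and -0.58, the lowest of all rats, at 7.5 h. At 59.8 and 61.3 h it was -0.49 and 0.19, and at 31.6 and 32.8 h -0.02 and -0.20.

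The luminal score went up with 5 of the 8 by r, and 2 of these, Csn3 and Lalba, also passed by rho. It had an r of 0.48 and a rho of 0.41 with Csn2 (permutation, adjusted p = 0.037 and 0.070) and 0.55 and 0.53 with Csn3 (adjusted p = 0.015 and 0.026). Without the 2 rats farthest out r was 0.47 for Csn2 and 0.57 for Csn3. Of 13 luminal markers that passed the filter, 5 went up with Csn2, Krt8, Krt18, Krt19, Cldn3 and Cldn4, and 7 with Csn3 (limma), beside 4.63% and 5.74% of all probe sets. Krt19 and Cldn3 passed with all 8 members. In the other direction Krt7 went down with 5 members, at -0.54 with Csn3 and -0.62 with Lalba, and Prom1 with 1, Glycam1, at -0.48. The score ran from -0.42 to 0.31 on the log2 scale. Its lowest value was in the rat of 61.3 h and its highest in that of 59.8 h, the neighbours of day 3 named above. At 7 and 7.5 h it was -0.02 and 0.03, and at 31.6 and 32.8 h -0.37 and -0.09. After the luminal score was taken out, r between members was lower in 25 of the 28 pairs and ran from 0.54 to 0.94, with a median of 0.79. The part of fat and epithelial content in the levels of the members was not tested.

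The remaining scores passed with few members. The endothelial score went down with 4 of the 8 and the macrophage score with 2 by r, and of these 2 and 1 also passed by rho. For Csn2 r was -0.47 and -0.46 (permutation, adjusted p = 0.040 for both). The basal, skeletal muscle and lymphocyte scores passed with none of the 8 (1, 0 and 0 at an unadjusted permutation p under 0.05), with r from 0.06 to 0.38, -0.34 to -0.15 and -0.33 to 0.21, although the muscle score itself ran from -4.10 to 2.26 on the log2 scale. Among basal markers Oxtr, the oxytocin receptor of myoepithelium, had the lowest r, -0.73 with Csn2, and Krt5 passed with 7 members in the other direction. Of the markers themselves, 2 of 10 basal genes, Cnn1 and Tagln, and 1 of 8 macrophage genes, Cd163, differed between days, and 3 of 10 adipocyte genes, Plin4, Cidec and Pparg, climbed through the day (limma), beside 0.574% and 1.96% of all probe sets.

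Glycam1 is also a product of lymph node vessels, so that lymph node markers were set beside it. Of the 5 genes of the lymph node vessel list with a probe set, Madcam1 went from 7.41 to 11.4 and Chst4 from 7.10 to 10.8. Both were near background and below the filter. The score of the other 3, Ackr1, Ccl21 and Ccl19, had an r of 0.07 and a rho of -0.05 with Glycam1 (permutation, adjusted p = 0.729 and 0.864), and without the 2 rats farthest out r was 0.03. Ackr1 and Ccl21 were at least 352 and 1874 in every rat, unlike Madcam1 and Chst4. The score is therefore not taken as a measure of high endothelium. Lymphocyte markers were high in some rats, as with Ms4a1, of B cells, which went from 4.57 over a median of 6.01 to 541, and their score had an r of 0.21 with Glycam1 (permutation, adjusted p = 0.334). Both scores had an r under 0 with the 7 other members. The rats of 61.3 and 80.9 h were highest in both, with lymphocyte scores of 2.31 and 2.62. Glycam1, with 1117 and 1640, was the only member over its median in these rats. Csn2 had 403 and 594 there, and Wap 170 and 756. The rat of 57 h, with a lymphocyte score of 2.06, had all 8 members over their median. That of 88.1 h, with 1.09, had none. The part of lymph node vessels in the level of Glycam1 was not tested.

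**Figure D4:**
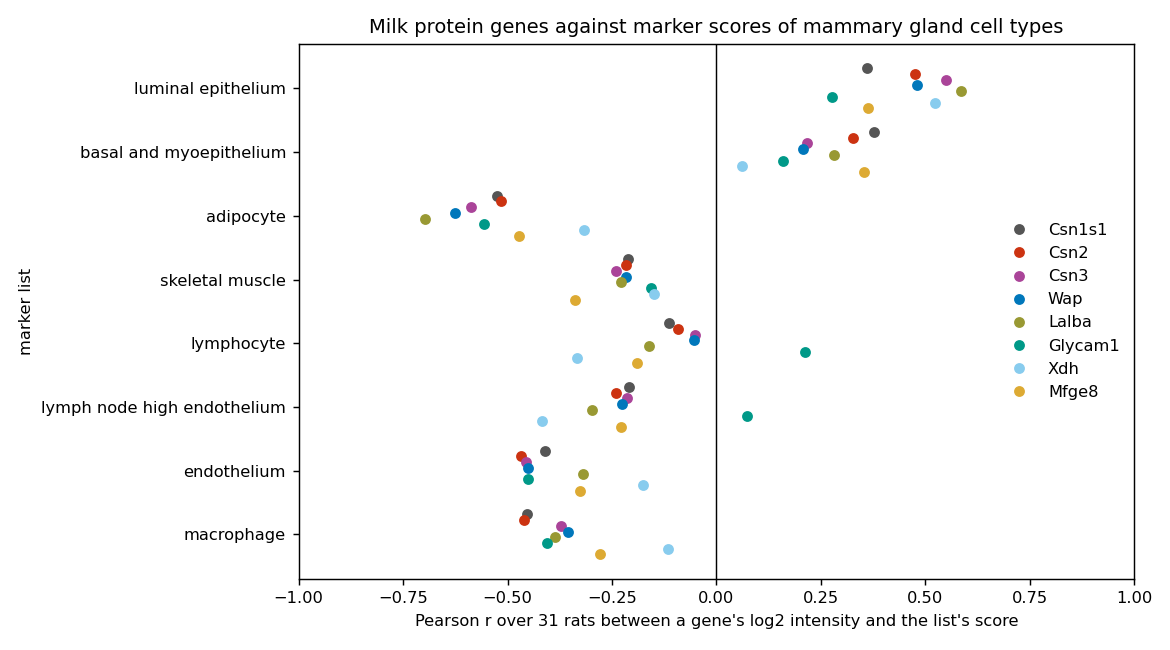
Pearson r over 31 rats between the log2 intensity of each milk protein gene (colour) and the score of each of 8 marker lists (rows). All 8 genes lie left of 0 for the adipocyte list, from -0.70 to -0.32, and right of 0 for the luminal list, from 0.28 to 0.58.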

How the data were processed

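RNA of 32 rats was measured on Affymetrix arrays, 1 array per rat. The authors deposited intensity values on a linear scale, made with GC-RMA, a background correction and normalization that the submitters name as GCRMA without a version. Precision is limited by the number of arrays, with a single array for each time point. The labels and the methods differ on how the tissue was stored. No slide or scan batch was known.

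Without the 57 control probe sets, 31042 remained, of which 21068 reached 10 in all 31 rats used. The platform annotation gave 1 symbol for 20826, several for 436 and none for 9780, and none was named from several. log2 intensities were fitted with limma 3.58.1 (R 4.3.3) with cycle day and clock hour (centred at 12.5), Benjamini-Hochberg adjustment over all probe sets and a threshold of 0.05. Method 1 used a spline of order 2, the study's permutation vector and a rate of 0.25. Correlations and their permutation p, from 100000 resamples, were computed with numpy 2.4.6, and the ranks for rho with scipy 1.17.1. The limma p-values weigh a difference or slope against the spread between single rats. Those of Method 1 rank a ratio among the ratios of all probe sets with the arrays reordered. Those of correlations and scores come from shuffling the rats. The scripts were tested on simulated data.

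A gene of a list was read by its probe set with the highest mean. The text names all members, pathway and milk list genes past the threshold for day or hour, the 5 genes most like each member and markers of highest or lowest r. Further genes were named after their values were seen. Members and lists were chosen with earlier results of these data known. Alternatives changed filter, arrays, normalization, variance model, scale, covariates, spline and burst threshold, and left out each rat.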

Additional observations from a re-analysis of the deposited data

How the results depend on the processing

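No paired analysis was possible because each time point had 1 rat and the rat numbers pair nothing across days. The count of members that differed between days, 0, became 2 with array weights (Csn1s1 and Glycam1), 1 with the luminal score as a covariate (Csn1s1, limma adjusted p = 0.012) and 1 with the adipocyte and muscle scores (Csn1s1, 0.035), and ran from 0 to 1 when a rat was left out, 1 only without the rat of 7.5 h. It stayed at 0 without a filter, with a median filter, with all 32 arrays, with quantile normalization, robust variances, normal scores or day alone. Over these alternatives the limma adjusted p of Csn1s1 ran from 0.012 to 0.345. The slope count of 0 became 1 with the adipocyte and muscle scores (Xdh, 0.027) and was 0 without any single rat. Counts for pairs of days stayed at 0. Method 1's count of 1 became 0 with an order 4 spline, at a rate of 0.05, without a filter and with quantile normalization, and ran from 0 to 4 when a rat was left out. In place of 10 rats, 5 had a burst at 8 times the median, 0 of them of day 4, and 15 at 2 times, 2 of them of day 4. The median r of 28 pairs ran from 0.79 to 0.87. No result reversed, and the cause of these moves was not tested. The number of rats per day, with no replicate of a time point, limits the tests between days.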
